A study of Homo sapiens with 4 samples.

Results

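Antisense and divergent long non-coding RNAs (lncRNAs) are named after the gene they lie beside: the endings -AS1 and -AS2 mark transcripts antisense to that gene, and -DT marks a transcript that starts near the gene's promoter and runs the other way. The set described here holds 200 such lncRNAs, each with its named partner gene measured on the same arrays. Of the 14884 genes measured, 562 have a symbol with one of these endings. The partner was measured for 371 of them, after 2 transcripts of GAS6 were left out. The 200 were chosen by the highest mean log2 level over the 4 arrays, whatever the group. They comprise 152 -AS1, 5 -AS2 and 43 -DT lncRNAs with 198 distinct partners, since PAXIP1 and ZNF503 are each the partner of 2. RefSeq, the NCBI gene catalogue, classes 198 of the 200 as lncRNA and 2 as antisense RNA, and 197 of the partners as protein-coding; the remaining partner, GAS5, is itself an lncRNA.

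The cells were LS411N-5FU-R, a 5-fluorouracil-resistant line derived from the metastatic human colon carcinoma line LS411N. Both groups were this resistant line, cultured for 3 days in RPMI medium with serum, either without verticillin A (control, 0 nM, 2 arrays) or with it (50 nM, 2 arrays). Verticillin A is a fungal epipolythiodioxopiperazine known as an inhibitor of histone methyltransferases. Parental LS411N cells were not analysed here, so what resistance itself changes is not part of any value below.

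Many promoters of protein-coding genes start transcription in both directions. The upstream, divergent transcript is often short-lived, and where it is stable it may be catalogued as a -DT or -AS1 lncRNA that shares the promoter region with its partner. Other antisense lncRNAs start within the partner gene and overlap its exons or introns; some are known to raise or lower the partner's expression, and for most no function has been shown. The question put to the data was whether each lncRNA changed with verticillin A, and whether it changed with or apart from its partner.

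The mean levels of the 200 ranged from 4.23 to 9.75 on the deposited log2 scale. At the lower limit of the set, MSC-AS1 was the last to enter at 4.23 (change 0.13) and RRS1-DT the first left out, also at 4.23 (change 0.11). For 4 lncRNAs the control mean, and for 3 the treated mean, lay below the mean of MSC-AS1, so these 7 entered only through their brighter group. CLDN10-AS1, KLF3-AS1 and UNC5B-AS1, described below, are among the 7. The array medians over the 200 were 5.19 and 5.23 in control and 5.10 and 5.24 with verticillin A, against 5.84 and 5.89, and 5.82 and 5.82, over all genes. Of the 12 colon epithelial markers listed, 10 were measured; KRT19 rose (mean 8.23 in control, 8.67 treated), VIL1 fell (6.16, then 5.54) and 3 had an unadjusted p under 0.05 in limma. EPCAM averaged 11.11 in control and 10.94 treated and KRT18 10.37 and 10.44, whereas the colon markers KRT20, CDX1 and CEACAM5 were at 4.61, 4.06 and 3.55 in control. The measured fibroblast markers (3 of 9 listed), immune markers (4 of 9) and endothelial markers (4 of 6) lay between 3.38 and 4.69 in both groups, and 0 of them passed in limma (0 at an unadjusted p under 0.05).

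Of the 200 lncRNAs, 7 rose and 5 fell with verticillin A. CLDN10-AS1 rose most, 2.10-fold, and BCAR3-AS1 fell most, 1.91-fold. The other risers were UBL7-DT, SEPSECS-DT, URB1-AS1, MELTF-AS1, CPB2-AS1 and LRP4-AS1, and the other fallers KLF3-AS1, STARD7-AS1, NHSL1-AS1 and PCGF3-AS1. Among these 12, CLDN10-AS1 and KLF3-AS1 entered the set only through their brighter group. A change is the mean log2 value with verticillin A minus that in control, given with its standard error (SE, n = 2 arrays a group), and it passed when limma's p, adjusted by Benjamini-Hochberg over all 14884 genes, was under 0.05. The 12 are 6% of the set, beside 8.65% of all genes (1287 genes); by direction, 3.55% of all genes rose and 5.10% fell. The split depends on scaling: with arrays centred on their medians 11 lncRNAs rose and 4 fell, and over all genes 528 higher and 759 lower became 750 and 668. The set's share lies below that of all genes and no test was made of the difference.

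**Figure D1:**
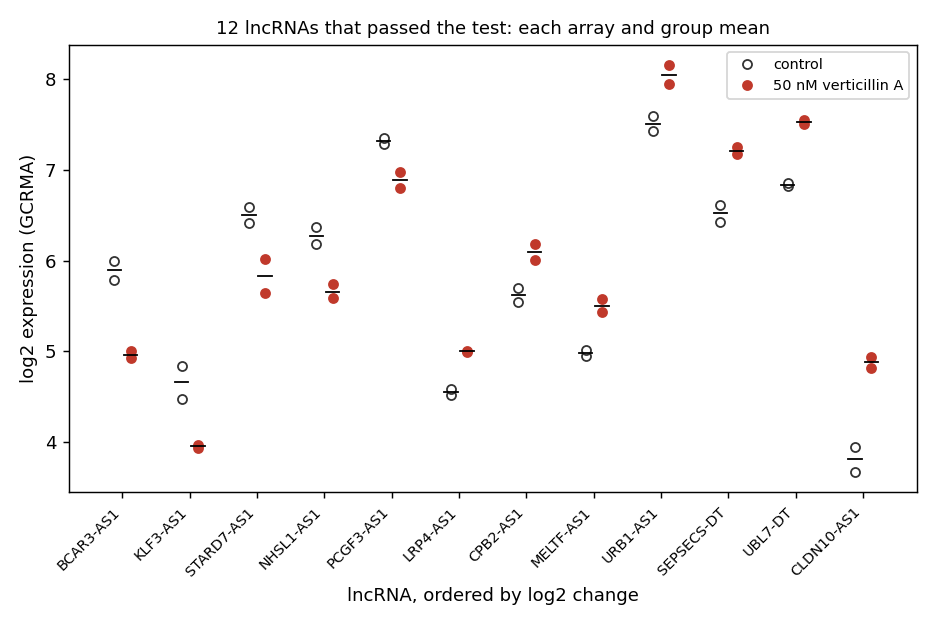
Log2 expression (y axis, deposited GCRMA values) of the 12 lncRNAs that passed the test (x axis, ordered by change); open points are the 2 control arrays, filled points the 2 arrays at 50 nM verticillin A and lines the group means. For each of the 12 both treated points lie on one side of both control points, from the fall of BCAR3-AS1 on the left to the rise of CLDN10-AS1 on the right. The 12 were picked on these same values, and 54.8% of all genes likewise did not overlap between groups.

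CLDN10-AS1, named for the gene of the tight-junction protein claudin 10, starts 18810 bases upstream of the nearest CLDN10 start in RefSeq and runs away from it. CLDN10-AS1 measured 3.95 and 3.67 in control and 4.82 and 4.94 with verticillin A. Its change was 1.07 ± 0.11 (adjusted p = 0.0125). Both control values are in the low range of the array, and no detection call was available to separate them from background, so the fold may understate the change in RNA. CLDN10 itself stayed low, at 3.86 and 3.91 in control and 3.66 and 3.76 treated (change -0.17 ± 0.07, adjusted p = 0.213). The lncRNA gained 1.24 ± 0.14 on its partner (adjusted p of the difference 0.00728). CLDN10 and the control values of CLDN10-AS1 lie within the range of the fibroblast, immune and endothelial markers, 3.38 to 4.69, so this difference is set against values not shown to be above background, and CLDN10-AS1 is in the set only through its treated arrays.

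BCAR3-AS1 measured 5.79 and 6.0 in control and 5.00 and 4.93 treated, with no overlap. Its change was -0.93 ± 0.10 (adjusted p = 0.0117). BCAR3, an adaptor that binds the Cas protein BCAR1 in adhesion signalling, measured 6.42 and 6.71 in control and 7.04 and 6.93 treated, higher on both treated arrays but not past the threshold (change 0.42 ± 0.12, adjusted p = 0.0855). The change of the lncRNA lay 1.35 ± 0.11 below that of the partner, the largest difference of the 200 pairs (adjusted p = 0.00354).

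SEPSECS-DT was the one lncRNA of the set that passed in the opposite direction to a partner that also passed. It measured 6.43 and 6.62 in control and 7.18 and 7.25 treated, a change of 0.69 ± 0.09 (adjusted p = 0.018). SEPSECS, the enzyme that completes selenocysteine on its transfer RNA, measured 8.80 and 8.86 in control and 8.34 and 8.23 treated, a change of -0.54 ± 0.08 (adjusted p = 0.0208). The lncRNA therefore rose 1.61-fold while its partner fell 1.46-fold, and the changes differed by 1.23 ± 0.12 (adjusted p = 0.00537).

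NHSL1-AS1 and KLF3-AS1 fell together with their partners. NHSL1-AS1 measured 6.37 and 6.18 in control and 5.59 and 5.74 treated (-0.61 ± 0.10, adjusted p = 0.0274). NHSL1, of the Nance-Horan syndrome protein family, measured 7.99 and 8.07 in control and 7.43 and 7.61 treated (-0.51 ± 0.09, adjusted p = 0.0319). The difference between these changes was -0.10, with a 95% interval from -0.41 to 0.21. KLF3-AS1 measured 4.47 and 4.84 in control and 3.97 and 3.94 treated (-0.70 ± 0.13, adjusted p = 0.0372). Its treated values and the control value 4.47 lie within the range of the other cell types' markers, 3.38 to 4.69. They were not shown to be above background. KLF3, a zinc-finger repressor of transcription, measured 9.67 and 9.69 in control and 9.14 and 9.20 treated (-0.51 ± 0.07, adjusted p = 0.0184). Here the difference was -0.18, with an interval from -0.53 to 0.16. Both intervals include 0 and allow differences in either direction, so they do not show that lncRNA and partner changed alike.

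For the other 7 lncRNAs that passed, the partner did not. UBL7-DT measured 6.83 and 6.86 in control and 7.51 and 7.55 treated, a rise of 0.69 ± 0.07 (adjusted p = 0.011), while UBL7, a ubiquitin-like protein gene, measured 9.39 and 9.50, then 9.32 and 9.42. URB1-AS1 measured 7.43 and 7.60 in control and 7.95 and 8.16 treated, a rise of 0.54 ± 0.10 (adjusted p = 0.0394), beside URB1, a nucleolar protein of ribosome assembly, at 8.72 and 8.72, then 8.69 and 8.68. In these pairs the partner changed by -0.08 ± 0.08 and -0.04 ± 0.07. The arrays of both lncRNAs did not overlap between groups, but neither did those of URB1, as for 54.8% of all genes.

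MELTF-AS1, beside the gene of the iron-binding membrane protein melanotransferrin, measured 4.95 and 5.02 in control and 5.43 and 5.58 treated (0.52 ± 0.08, adjusted p = 0.0271). LRP4-AS1, beside the gene of a receptor known for binding agrin at the nerve-muscle junction, measured 4.52 and 4.58 in control and 4.99 and 5.01 treated (0.45 ± 0.07, adjusted p = 0.0245). Its control values lie within the range of the other cell types' markers, 3.38 to 4.69, and were not shown to be above background. CPB2-AS1 measured 5.54 and 5.70 in control and 6.18 and 6.01 treated (0.48 ± 0.10, adjusted p = 0.0454). CPB2, a plasma carboxypeptidase made mainly in liver, was low throughout at 3.69 to 3.91. MELTF changed by -0.26 ± 0.13 and LRP4 by -0.10 ± 0.07, neither past the threshold. MELTF-AS1 and LRP4-AS1 differed from their partners, by 0.77 ± 0.13 and 0.55 ± 0.11 (adjusted p = 0.0195 and 0.0325). The difference between CPB2-AS1 and CPB2 did not pass (0.38 ± 0.11, adjusted p = 0.0748), so that lncRNA was not shown to change apart from its partner.

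STARD7-AS1 measured 6.42 and 6.59 in control and 5.65 and 6.02 treated (-0.67 ± 0.14, adjusted p = 0.048). STARD7, which carries phosphatidylcholine to mitochondria, was nearly level at 11.28 and 11.32 in control and 11.34 and 11.32 treated. PCGF3-AS1 measured 7.29 and 7.35 in control and 6.80 and 6.98 treated (-0.44 ± 0.09, adjusted p = 0.0424). PCGF3, a Polycomb RING-finger subunit, measured 9.55 and 9.66, then 9.72 and 9.74. The treated arrays of STARD7-AS1, 5.65 and 6.02, lie farther apart than those of the other 11, and its call is the closest to the threshold. Centring each array on its median ended that call (adjusted p = 0.0524).

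Each of the 12 calls was lost when particular single arrays were left out. Leaving out control replicate 1, control replicate 2 or verticillin A replicate 2 left 0 of the 200 lncRNAs past the threshold (46, 41 and 37 at an unadjusted p under 0.05 in limma). Without verticillin A replicate 1, CLDN10-AS1 (adjusted p = 0.045) and BCAR3-AS1 (adjusted p = 0.0474) passed. The direction of all 12 was kept in each of these fits. Over all genes, limma passed 0 without either control array.

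The other 188 lncRNAs did not pass. Over the 200 the changes ran from -0.93 to 1.07 with a median of -0.03, beside -0.01 over all genes, and 90 were above 0 and 110 below. With arrays centred on their medians the members' median became 0.012 and 110 were above 0, so neither sign can be read as a direction of the set. At an unadjusted p under 0.05 stood 52 lncRNAs, 26.0%, beside 26.7% of all genes. Both treated arrays lay beyond both control arrays for 101 lncRNAs, 50.5%, beside 54.8% of all genes. The median size of change was 0.118 (0.116 over all genes), and the 2 arrays of a group differed by a median of 0.116 in control and 0.12 treated. Over all genes these gaps were 0.0972 in control and 0.0781 treated. The size of change and the gap are not like measures, since a change is between means of 2 arrays and a gap between single arrays.

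The call counts moved with signal. Of the 63 lncRNAs above 5.84, the level that splits all genes evenly, 7 passed (11.1%), beside 14.6% of all genes there. Of the 137 below it, 5 passed (3.65%), beside 2.73%. Of the 171 lncRNAs of this kind below the lower limit of the set, 0 passed in limma and 12 had an unadjusted p under 0.05. The partners were brighter as a group, with 132 of 198 above that level.

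**Figure D2:**
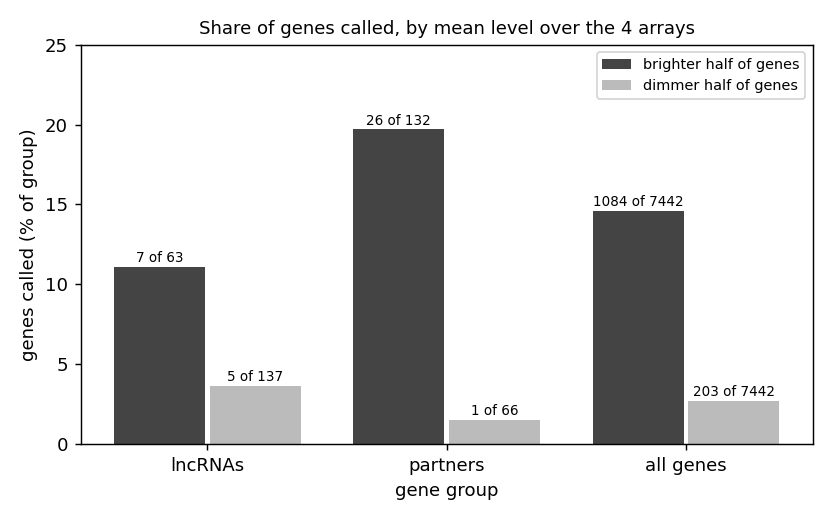
Share of genes that passed the test (y axis, percent of the group; the count stands on each bar) among the lncRNAs, their partners and all genes, split at the level of 5.84. Above it 11.1% of the lncRNAs, 19.7% of the partners and 14.6% of all genes passed, against 3.65%, 1.52% and 2.73% below it.

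Among lncRNAs that missed the threshold, IDI2-AS1 had the largest change, 0.56 ± 0.18 (5.00 and 5.33 in control, 5.50 and 5.96 treated, adjusted p = 0.126). Its treated arrays lay apart by nearly as much as its groups. TAPT1-AS1 was at -0.45 ± 0.14 and FLVCR1-DT at 0.43 ± 0.11. ASB16-AS1 measured 7.60 and 7.78 in control and 8.13 and 8.06 treated (0.40 ± 0.09), just outside at an adjusted p of 0.0522. It passed when arrays were quantile-normalized, centred on their medians, or when the dimmest genes were left out. IDI2-AS1, TAPT1-AS1 and FLVCR1-DT were chosen after their values were seen.

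The 8 with the highest mean levels were THAP9-AS1, PAX8-AS1, TMEM147-AS1, CCDC18-AS1, PRRT3-AS1, ASB16-AS1, DHRS4-AS1 and SVIL-AS1, and 0 of these passed in limma (2 at an unadjusted p under 0.05). THAP9-AS1 measured 9.86 and 9.79 in control and 9.66 and 9.69 treated (change -0.15). PAX8-AS1, antisense to the gene of a thyroid and kidney transcription factor, measured 8.36 and 8.46, then 8.32 and 8.32 (-0.09). DHRS4-AS1 measured 7.96 and 8.08, then 7.68 and 7.74 (-0.31 ± 0.08, adjusted p = 0.0678). For THAP9-AS1, PAX8-AS1, DHRS4-AS1 and SVIL-AS1 both treated arrays lay below both controls by a small step, and for ASB16-AS1 above them. Of all genes above the level of 5.84, 69.2% likewise did not overlap between groups. In limma 14.6% of those genes passed and 39.3% had an unadjusted p under 0.05. DHRS4-AS1 has a dimmer probe set whose change was -0.04, so its probe sets differ in size of change. TMEM147-AS1, CCDC18-AS1 (-0.01) and PRRT3-AS1 (0.10) did not separate the groups.

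Of 65 antisense or divergent lncRNAs listed because they have been studied in cancer, 15 are in the set. In limma 0 of the 15 passed, 5 had an unadjusted p under 0.05 (33.3%, beside 26.7% of all genes, of which 8.65% passed), and changes ran from -0.30 to 0.33 with a median of -0.08 (all genes -0.01). FOXD2-AS1 measured 6.31 and 6.36 in control and 6.54 and 6.79 treated (0.33 ± 0.10, adjusted p = 0.107). ZEB1-AS1, beside the gene of a transcription factor of epithelial-mesenchymal transition, measured 4.89 and 4.98, then 4.62 and 4.65 (-0.30 ± 0.07, adjusted p = 0.0621). They are the extremes of the list, and in both the arrays did not overlap between groups; ZEB1-AS1 was chosen after its value was seen. MNX1-AS1 (-0.22), SBF2-AS1 (-0.22), TMPO-AS1 (0.23), FEZF1-AS1 (-0.18), PTOV1-AS1 (-0.12), LOXL1-AS1 (-0.06) and VPS9D1-AS1 (-0.03) were smaller; LOXL1-AS1 has a second probe set at -0.42.

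Among the 198 partners, 9 rose and 18 fell. That is 13.6%, beside 8.65% of all genes and 9.51% of protein-coding genes. Above the level of 5.84 it was 19.7% of partners beside 14.6% of all genes, and below it 1.52% beside 2.73%; the differences were not tested. KDM7A, a demethylase that removes repressive methyl marks from histone H3, fell most, 1.91-fold. PCNA, the sliding clamp of DNA replication, rose most. ZNF674, a KRAB zinc-finger gene, PDCD4, an inhibitor of translation initiation, CFAP418, GARS1, the glycyl-tRNA synthetase, UNC5B, a netrin receptor, and ZNF503 fell, while SPAG5, a mitotic spindle protein, and ARRDC3, an arrestin-domain adaptor, rose.

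Without control replicate 1 or control replicate 2, 0 of the 27 partner calls passed in limma, though all 27 kept their direction and an unadjusted p of at most 0.0112 and 0.0183. Without verticillin A replicate 1, 2 passed, and without verticillin A replicate 2, 3 did.

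In 25 pairs the partner passed and the lncRNA did not. KDM7A measured 9.07 and 9.11 in control and 8.20 and 8.13 treated (-0.93 ± 0.07, adjusted p = 0.00699). KDM7A-DT measured 4.66 and 4.99, then 4.62 and 4.61 (-0.21 ± 0.12, adjusted p = 0.35), a smaller step, with a gap between its control arrays larger than the step. The changes differed by 0.72 ± 0.13 (adjusted p = 0.0272). PCNA measured 9.90 and 9.89 in control and 10.82 and 10.70 treated (0.87 ± 0.07, adjusted p = 0.00909). PCNA-AS1 measured 4.85 and 4.62, then 4.86 and 4.71 (0.05 ± 0.11), overlapping between groups. The changes differed by -0.82 ± 0.12 (adjusted p = 0.016). KDM7A-DT and PCNA-AS1, at 4.61 to 4.99 and 4.62 to 4.86, reach down into the range of the other cell types' markers (up to 4.69). They were not shown to be above background, and the differences then largely restate the change of the partner.

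ZNF674 measured 6.35 and 6.30 in control and 5.31 and 5.63 treated (-0.86 ± 0.12, adjusted p = 0.0202), while ZNF674-AS1 measured 6.67 and 6.72, then 6.87 and 6.79 (0.13 ± 0.07). The difference was 0.99 ± 0.15 (adjusted p = 0.0173), the largest among pairs where only the partner passed. SPAG5 measured 8.73 and 8.87 in control and 9.55 and 9.45 treated (0.70 ± 0.08, adjusted p = 0.0161) beside SPAG5-AS1 at -0.09 ± 0.13. UNC5B measured 8.36 and 8.52, then 7.69 and 7.96 (-0.61 ± 0.11, adjusted p = 0.0369) beside UNC5B-AS1 at 0.26 ± 0.09. Both of these pairs differed too, by -0.79 ± 0.15 (adjusted p = 0.0284) and 0.87 ± 0.16 (adjusted p = 0.0275). SPAG5-AS1 (4.41 to 4.75) and UNC5B-AS1 (4.06 to 4.42) carry the same limit, and UNC5B-AS1 is in the set only through its treated arrays.

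GARS1 measured 10.85 and 11.07 in control and 10.26 and 10.33 treated (-0.67 ± 0.10, adjusted p = 0.022) beside GARS1-DT at 6.11 and 6.14, then 6.03 and 5.99. ARRDC3 measured 10.02 and 10.15, then 10.57 and 10.58 (0.49 ± 0.08, adjusted p = 0.0263), whereas ARRDC3-AS1 measured 5.20 and 5.20, then 5.02 and 4.97 (-0.20 ± 0.07). TMEM147, an endoplasmic reticulum membrane protein, measured 10.36 and 10.36, then 10.79 and 10.86 (0.47 ± 0.07, adjusted p = 0.0227), while TMEM147-AS1 met between groups at 8.18 and 8.38, then 8.12 and 8.18. These pairs differed by 0.55 ± 0.12, -0.69 ± 0.11 and -0.60 ± 0.12 (adjusted p = 0.0426, 0.0196 and 0.0324). GARS1-DT is read from several probe sets, and a dimmer one changed by 0.07 where the one used changed by -0.12.

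ZNF503 is the partner of 2 lncRNAs and so counts in 2 pairs. It measured 6.26 and 6.47 in control and 5.80 and 5.87 treated (-0.53 ± 0.09, adjusted p = 0.0341). ZNF503-AS1 changed by 0.13 ± 0.08 and ZNF503-AS2 by 0.02 ± 0.07. Each differed from ZNF503, by 0.66 ± 0.12 (adjusted p = 0.0256) and 0.55 ± 0.13 (adjusted p = 0.0499), the latter at the edge of the threshold. POPDC1, a membrane protein of cell contacts, fell by 0.46 on the log2 scale (8.36 and 8.44, then 7.89 and 7.99; adjusted p = 0.029), and POPDC1-AS1, as dim at 4.17 to 4.58, was at 0.24 ± 0.11 (adjusted p of the difference 0.0222).

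In other pairs the partner passed and the difference did not. PDCD4 fell by 0.72 (8.89 and 8.84 in control, 8.13 and 8.16 treated, adjusted p = 0.00996). PDCD4-AS1 was at -0.33 ± 0.11 (5.54 and 5.59, then 5.39 and 5.08), and its other probe set was at -0.12. CFAP418, a gene of photoreceptor cilia, fell by 0.68 (adjusted p = 0.0136), and CFAP418-AS1 was at -0.36 ± 0.17. EPB41L4A fell by 0.42 (adjusted p = 0.0448), and EPB41L4A-AS1 was at -0.38 ± 0.14. In these 3 pairs the lncRNA was lower on average without passing. JMJD1C, a jumonji-domain protein related to histone demethylases, fell (10.03 and 10.02, then 9.59 and 9.68; adjusted p = 0.0344) while JMJD1C-AS1 overlapped between groups (-0.15 ± 0.13). KDM4A, a further demethylase partner, missed the threshold (8.96 and 9.02, then 8.69 and 8.65; adjusted p = 0.0514), and KDM4A-AS1 changed by 0.01 ± 0.07. USP2, a deubiquitinase, passed at 0.47, but its other probe set was at -0.05, and averaging them ended its call (adjusted p = 0.229).

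Lists of partners by function, built from gene names, are not complete, may hold genes of other functions and gave few calls each. Of the lncRNAs that passed, only KLF3-AS1 is on a list. PCGF3, JMJD1C, CLDN10, BCAR3 and STARD7, described above, are on none. A list with 0 calls therefore does not cover every partner of its kind. Beside the lists, 8.65% of all genes passed, 26.7% had an unadjusted p under 0.05 and 51.8% of all pairs shared a sign. Of 11 pairs with a zinc-finger partner (10 partners), 0 lncRNAs passed in limma (3 at an unadjusted p under 0.05), 1 partner rose (ZBTB20, 0.36) and 2 fell (ZNF674 and ZNF503), with a median lncRNA change of 0.03; lncRNA and partner had the same sign in 1 of the 11. Of 7 pairs with a developmental transcription factor, KLF3-AS1 and KLF3 fell and the other 6 lncRNAs and partners did not pass; 5 of the 7 lncRNAs had an unadjusted p under 0.05. Of 7 pairs on the list for chromatin or DNA metabolism, 0 lncRNAs passed (1, DDX19A-DT, at an unadjusted p under 0.05), PCNA rose and KDM7A fell. That list takes in DDX19A and NUP50 by name, so its counts are not those of chromatin genes alone. In 7 pairs with transmembrane and transport proteins, 8 with ubiquitin-system proteins, 5 with signalling proteins, 5 with RNA-processing proteins, 4 with adhesion or cytoskeletal proteins and 1 with a mitochondrial protein, 0 lncRNAs passed in limma. At an unadjusted p under 0.05 stood 0, 5, 2, 1, 1 and 0 of them, in that order.

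Across the 200 pairs the changes of lncRNA and partner were nearly unrelated. They had the same sign in 96 pairs (38 both positive, 58 both negative) and opposite signs in 104, so 48.0% shared a sign, beside 51.8% of 14522 pairs of neighbouring measured genes. Pearson's r across pairs was 0.0437 and Spearman's rho 0.0367, beside 0.0706 and 0.0523 for neighbouring genes. All pairs share the same 4 arrays, so these values describe this experiment only. Both genes of a pair passed in 3 pairs, the lncRNA alone in 9, the partner alone in 25 and neither in 163. Neither passed in 81.5% of the 200, beside 83.8% of 14893 pairs with the neighbouring genes included. In those, both passed in 169, the first gene alone in 1102 and the second alone in 1137.

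**Figure D3:**
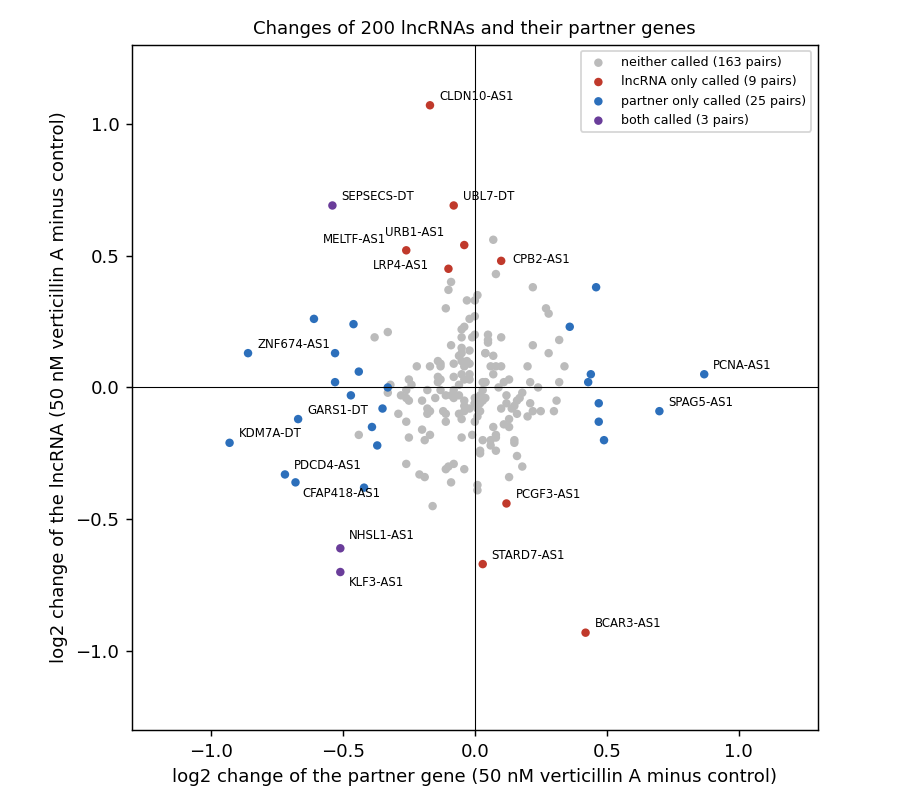
Change of each lncRNA (y axis, log2, verticillin A minus control) against that of its partner (x axis, log2) for the 200 pairs; each point is 1 pair, coloured by which gene passed the test. The points scatter around 0 (Pearson's r 0.0437), with CLDN10-AS1 at the top, BCAR3-AS1 at the bottom right and SEPSECS-DT in the upper left quadrant.

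The difference between the changes of lncRNA and partner was tested on their within-array log2 ratio, among 14893 pairs that include the neighbouring genes. In 23 of the 200 pairs it passed (11.5%), beside 9.35% of all 14893 pairs. The lncRNA gained on its partner in 15 and lost in 8. In 8 of the 23 the lncRNA alone had passed, in 11 the partner alone, in 1 both (SEPSECS) and in 3 neither. These 3 were ASB16-AS1 (0.50 ± 0.11, adjusted p = 0.0401), CTBP1-DT (adjusted p = 0.0379) and JAKMIP1-DT (-0.47 ± 0.11, adjusted p = 0.0468). JAKMIP1-DT (4.19 to 4.62) and JAKMIP1 (3.56 to 3.80) lie within the range of the other cell types' markers, 3.38 to 4.69. Neither was shown to be above background. The median size of the difference was 0.203, beside 0.181 over all pairs. CLDN10-AS1 and UNC5B-AS1, both among the 23, are in the set only through their treated arrays. CLDN10 and the control values of CLDN10-AS1 and LRP4-AS1 were not shown to be above background. BCAR3-AS1, CLDN10-AS1 and SEPSECS-DT differed from their partners in every fit with 1 array left out; the number of pairs that passed then fell to between 3 and 5, with control replicate 2 or verticillin A replicate 1 left out giving 3, control replicate 1 giving 4 and verticillin A replicate 2 giving 5.

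**Figure D4:**
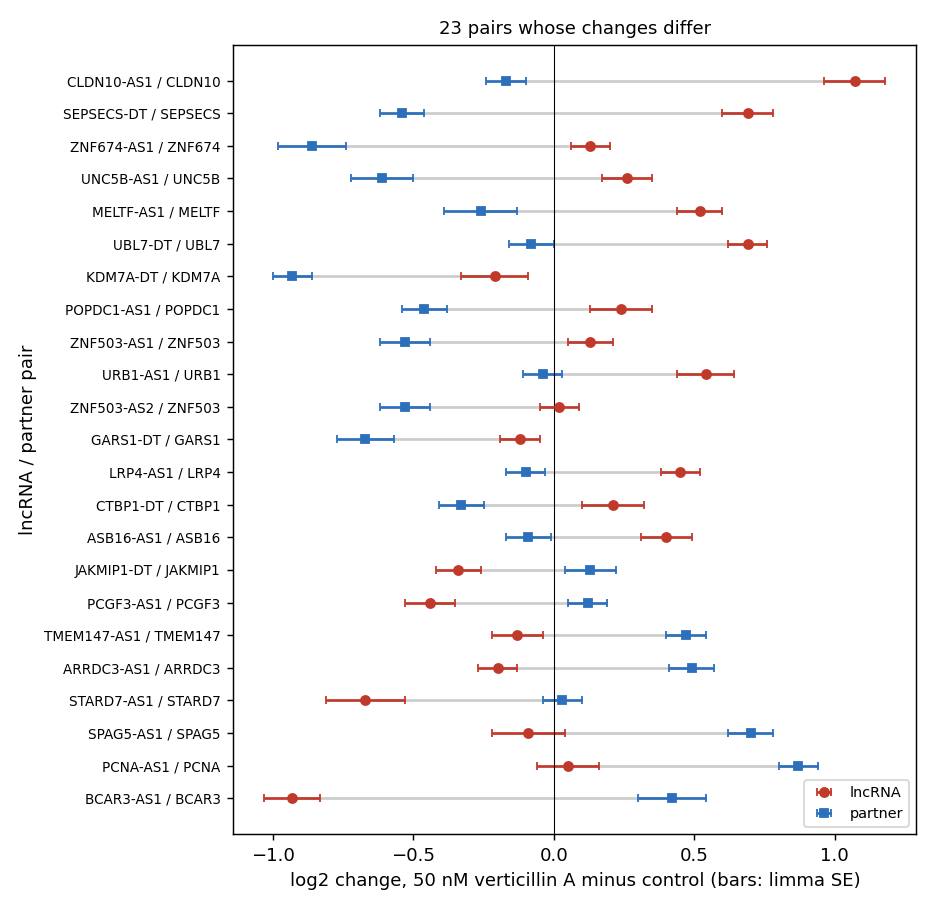
The 23 pairs whose changes differed: log2 change (x axis) of the lncRNA (circles) and of the partner (squares) with SE bars (n = 2 arrays a group), 1 pair per line, ordered by their difference. The difference runs from -1.35 for BCAR3-AS1 to 1.24 for CLDN10-AS1, and in SEPSECS-DT both changes lie clear of 0 on opposite sides.

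The arrangement of start sites was known for 144 pairs, those with entries for both genes in the RefSeq promoter table (GRCh38.p14). In 60 the lncRNA ran away from a partner start within 1000 bases, in 8 it did so from farther away, and in 76 it started inside the partner or beyond it. Signs were shared in 30 of the 60 close divergent pairs in 6 of the 8 farther divergent pairs and in 35 of the 76 others (50.0%, 75% and 46.1%, beside 51.8% of all pairs). The changes differed in 7, 2 and 8 of these pairs, beside 9.35% of all pairs, and 8 pairs are too few to read a share from. Among the 60, the lncRNA alone passed in 2 and the partner alone in 7. Among the 76, these counts were 5 and 10. Neither gene passed in 85.0% of the 60 and 80.3% of the 76, beside 83.8% of all pairs.

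**Figure D5:**
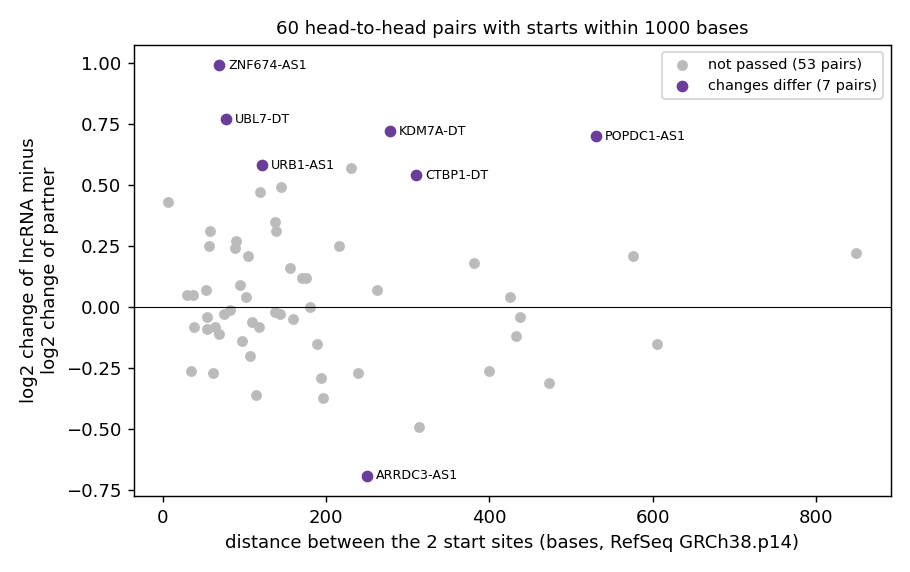
Difference between the changes of lncRNA and partner (y axis, log2) against the distance between their start sites (x axis, bases) for the 60 divergent pairs within 1000 bases; each point is 1 pair. The 7 pairs that differed lie between 69 bases (ZNF674-AS1) and 530 bases (POPDC1-AS1), among pairs that did not.

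The stretches between the start sites of 5 close divergent pairs are printed because they hold the promoters that the lncRNA and the partner face from either side. They are from RefSeq, build GRCh38.p14, on the partner's strand, 5′ to 3′, in lower case with motif matches in capitals. The letters searched, on both strands, were GGGCGG for the GC box, the letters CCAAT of the box so named, CCGGAAG for ETS factors, TGATGNAA for the C/EBP-ATF composite site, TTTNGCGC for E2F, TGACGTCA for the cAMP response element and TATAAA for the box that binds TBP, and 0 bases lie in matches of 2 motifs. UBL7-DT and URB1-AS1 rose without their partners, ZNRD2-DT is beside a partner that rose, and ZNF674-AS1 and KDM7A-DT are beside partners that fell.
UBL7-DT and UBL7, chr15:74461189-74461264, minus strand: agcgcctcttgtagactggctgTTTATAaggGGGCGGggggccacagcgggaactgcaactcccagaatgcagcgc
URB1-AS1 and URB1, chr21:32393013-32393132, minus strand: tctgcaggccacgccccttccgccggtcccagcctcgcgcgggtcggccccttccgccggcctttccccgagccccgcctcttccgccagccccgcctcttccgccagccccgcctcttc
ZNRD2-DT and ZNRD2, chr11:65570414-65570476, plus strand: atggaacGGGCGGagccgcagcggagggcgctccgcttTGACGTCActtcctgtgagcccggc
ZNF674-AS1 and ZNF674, chrX:46545422-46545489, minus strand: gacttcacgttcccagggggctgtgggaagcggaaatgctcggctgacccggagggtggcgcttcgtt
KDM7A-DT and KDM7A, chr7:140176984-140177233, minus strand: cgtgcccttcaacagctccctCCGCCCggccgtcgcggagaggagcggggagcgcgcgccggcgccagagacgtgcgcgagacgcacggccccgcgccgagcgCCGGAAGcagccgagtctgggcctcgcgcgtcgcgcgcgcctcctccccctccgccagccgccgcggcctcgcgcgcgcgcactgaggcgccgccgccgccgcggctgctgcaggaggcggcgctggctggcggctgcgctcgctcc

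The UBL7 stretch, 76 bases between starts, holds a TATAAA match, read on the strand of UBL7-DT (present in the same length of 4.6% of 27305 promoters) and a GC box (27.0%). UBL7-DT rose by 0.69 and UBL7 changed by -0.08, a difference of 0.77 ± 0.11 (adjusted p = 0.0147). The URB1 stretch, 120 bases with 77.5% G and C, holds 0 matches of the letters searched. The difference in that pair was 0.58 ± 0.13 (adjusted p = 0.0443). The ZNRD2 stretch of 63 bases holds a GC box (24.0%) and the cAMP response element letters (0.9%). ZNRD2 rose by 0.46 (adjusted p = 0.0228), and ZNRD2-DT measured 6.80 and 6.63 in control and 6.98 and 7.21 treated (0.38 ± 0.11, adjusted p = 0.0963), a difference of -0.08 with an interval from -0.40 to 0.24.

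The ZNF674 stretch of 68 bases holds 0 matches, and there the partner fell while the lncRNA did not pass. For KDM7A the starts lie 278 bases apart and the 250 bases before the KDM7A start are shown. They hold 50 CpG dinucleotides, beside a median of 11 for that length over all promoters, with a GC box (42.3%) and the ETS letters (8.8%). A match is a run of letters, not a measured binding site, and nothing about a factor follows from a match or its absence.

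By name ending, 5 of the 152 -AS1 lncRNAs rose and 5 fell, and of their partners 8 rose and 13 fell (6.58% and 13.8%, beside 8.65% of all genes). Of the 43 -DT lncRNAs 2 rose (UBL7-DT and SEPSECS-DT) and 0 fell in limma, and of their partners 1 rose and 5 fell (4.65% and 14%). Of the 5 -AS2 lncRNAs 0 passed and 1 had an unadjusted p under 0.05. Whether the endings differ was not tested. Beside the set, 4.72% of the 1398 lncRNA genes of RefSeq measured here passed (28 rose, 38 fell), and 3.71% of the 458 named LINC genes did. Their median levels were 4.13 and 3.90, beside 5.20 in the set, which was chosen by brightness. Since calls moved with level, these shares are not like for like. The labels and the deposited table give neither position nor strand of the probes. Whether a probe set named for an overlapping antisense lncRNA also reads its partner's RNA was not tested.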

How the data were processed

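Total RNA (250 ng per sample, per the labels' protocols) from 4 samples of LS411N-5FU-R cells, 2 control and 2 treated by their labels, was hybridised to Affymetrix whole-transcript arrays. The authors deposited log2 expression values per probe set, from 2.60 to 14.47, made with GCRMA per the submitters' processing notes. The GCRMA version, annotation, build and filters were not given in the sources used here. Such processing gives arrays like distributions, so a shift of total RNA would not show. The sources do not say whether replicates were grown separately; the p-values then reflect only how far these samples spread, which may be technical.

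The platform annotation names 1 symbol for 16098 of 53617 probe sets and leaves 37519 unnamed here; all 16098 matched RefSeq (GRCh38.p14). Each of 14884 genes was represented by its probe set with the highest mean (779 genes had several, 12 of the lncRNAs and 5 partners among them). Limma 3.58.1 in R 4.3.3 (lmFit, eBayes, constant prior; 2 residual and 3.43 prior degrees of freedom) was fitted over all genes with treatment as the factor, with Benjamini-Hochberg adjustment and a threshold of 0.05. The pair difference used the within-array ratio in log2 over 371 lncRNA and partner pairs plus 14522 neighbouring gene pairs. The steps were tested on simulated data. The members and lists were chosen with earlier results of these data known. Named were the lncRNAs that passed, pairs in which both passed, the 10 largest pair differences, the 10 largest partner changes without the lncRNA, the 8 highest means, up to 8 of the literature list and up to 3 per partner class, of which some are given as counts; others were chosen after their values were seen. Alternatives covered normalization, centring, low values, probe sets, the variance prior, symbols, the replicate block and leaving out each array.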

Additional observations from a re-analysis of the deposited data

How the results depend on the processing

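All 12 lncRNA, 27 partner and 23 pair calls kept their direction in each alternative in which they were fitted. Quantile normalization kept all 12, 27 and 23, and current RefSeq symbols changed 0 members. Centring arrays on their medians moved the lncRNAs that rose from 7 to 11, with 4 falling (11 of the 12 kept), and quantile normalization gave 10 and 5; over all genes the split of 528 higher and 759 lower became 750 and 668, and 678 and 731. Leaving out the dimmest 25% gave 8 falling lncRNAs instead of 5. Leaving out the dimmest 50% gave 20 rising and 28 falling partners among the 132 left (9 and 18 otherwise) and 13 differing pairs among the 42 left. A variance prior trended on level gave 16 rising and 28 falling partners. Calls rose over all genes too. In these fits, in the same order, 703 rose and 962 fell of 11163 genes, 1070 and 1329 of 7442, and 1067 and 1361 of 14884. With the replicate block, 2 lncRNAs fell, 2 partners rose, 10 partners fell and 14 pairs differed, and 7 of the 12 lncRNA calls were kept. The calls of NHSL1-AS1, KLF3-AS1, PCGF3-AS1, LRP4-AS1 and CPB2-AS1 were not. The deviations of same-numbered arrays correlated at 0.0124 over 14884 genes, so the numbers are not taken to pair the arrays. Leaving out 1 array gave 0 to 1 rising and 0 to 1 falling lncRNAs, 0 to 1 rising and 0 to 2 falling partners, and 3 to 5 differing pairs; the lone array of a group is then assumed to vary like the other group. With 2 arrays a group, and 137 of the 200 lncRNAs below 5.84, small changes of dim lncRNAs could not be detected.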

Other observations

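Outside the 200, 11 of the 189 lncRNAs with these endings whose partner was not measured passed in limma, 5 higher and 6 lower (5.82%, beside 8.65% of all genes). PRKG1-AS1 rose most of the 11, from 4.99 and 5.10 in control to 5.84 and 5.92 (0.83 ± 0.08, adjusted p = 0.00961). FAM222A-AS1 (0.61), ZDHHC12-DT (0.59), CSTF3-DT (0.57) and FGD5-AS1 (0.38) also rose. DLEU7-AS1 (-0.56), DLGAP1-AS1 (-0.48), NR2F1-AS1 (-0.48), GMDS-DT (-0.48), RGMB-AS1 (-0.43) and TPT1-AS1 (-0.33) fell. FGD5-AS1, at 8.97 and 8.94 in control and 9.31 and 9.36 treated, and DLGAP1-AS1, at 9.43 and 9.49, then 8.96 and 9.0, had clearly separate groups.

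The 171 lncRNAs below the lower limit of the set have 169 partners, of which 2 rose and 14 fell (9.47%, beside 8.65% of all genes) while 0 of the lncRNAs passed in limma (12 at an unadjusted p under 0.05). JUN, a subunit of the AP-1 transcription factor, fell by 1.06 on the log2 scale (8.35 and 8.48 in control, 7.36 and 7.36 treated, adjusted p = 0.00689). LEMD1 fell by 1.03, RNF157 by 0.88 and DENND5B by 0.86, and the cold-inducible RNA-binding protein gene CIRBP fell by 0.64. GTSE1, a protein of the G2 and S phases of the cell cycle, rose by 0.39 and PRDM10 by 0.35. The dim lncRNAs of these partners lie at or near the low end of the array's range. These genes were chosen after their values were seen.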
